A study of Homo sapiens with 36 samples.

Results

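JUNB was knocked down in breast epithelial cells transformed by an inducible Src oncoprotein, and the messenger RNA of these cells was compared with that of control cells. The comparison holds 4 of the 36 libraries of the series, chosen by their labels alone: 2 libraries with JUNB siRNA under tamoxifen (JUNBi_TAM) and 2 with control siRNA under tamoxifen (Ctrli_TAM). All of them come from MCF-10A ER-Src, a single line of non-transformed human mammary epithelial cells with a v-Src oncoprotein joined to the hormone-binding part of the estrogen receptor. Tamoxifen (TAM) switches this Src on, and ethanol (ETH) is the vehicle. The siRNAs were commercial pools transfected the day before treatment. The study's methods give siRNA-treated cells tamoxifen together with AZD0530, an inhibitor of Src kinases, for a short or a day-long exposure, without saying which exposure these RNA libraries had or whether those under ETH received AZD0530. Only JUNB siRNA and control siRNA separate the 2 groups by label. The labels do not say whether the 2 libraries of a group came from separate cultures, so p-values measure the spread between these libraries, which may be technical.

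JUNB belongs to the AP-1 family, in which JUN proteins pair with each other or with FOS, ATF and MAF proteins and bind the sequence TGANTCA. AP-1 genes respond quickly to growth factor and Src signaling through the MAP kinases, and their targets include cytokines, proteases and adhesion genes. JUNB is known as a JUN protein that can either activate or restrain such genes depending on its partner.

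The 4 libraries held 10275885 and 6419720 expected counts in Ctrli_TAM and 14115264 and 14945457 in JUNBi_TAM, where an expected count is the number of reads that RSEM assigned to a gene. Replicates of a group differed by an SD of 0.258 on the log2 scale in Ctrli_TAM and 0.308 in JUNBi_TAM over 10001 expressed genes. The gap between a gene's length and its effective length was 49.49 bases in the control libraries and 49 bases in the JUNBi libraries, which cannot be told apart from the knockdown. All 13 markers of the MCF-10A line (keratins, TP63, cadherins and others) were above 1 TPM in both groups, where TPM is the library-scaled count per unit of effective length. Of 8 immune markers, PTPRC, CD3E and FCGR3A were at 0 TPM in all 4 libraries, and of 12 fibroblast, endothelial and luminal markers 9 were under 1 TPM in Ctrli_TAM and 10 in JUNBi_TAM.

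The AP-1 sequence was present in the promoters of some named genes, called or not, and 4 of these are shown. ANKRD1 rose with JUNBi, and CXCL8 and CD68 fell. SPRR1B had 0 to 6 counts per library in JUNBi_TAM and Ctrli_TAM and no adjusted p there. It was lower in JUNBi_TAM than the mean of the other knockdowns under TAM, which rests on YAPi as given below. Each line gives the 250 bases before the RefSeq start of the gene (GRCh38.p14), written 5′ to 3′ on the strand of the gene, with TGANTCA in capitals. The pattern TGANTCA, where N is any base, reads the same way on both strands, although the middle base of a given copy is complemented.
ANKRD1, chr10:90921088-90921337, minus strand: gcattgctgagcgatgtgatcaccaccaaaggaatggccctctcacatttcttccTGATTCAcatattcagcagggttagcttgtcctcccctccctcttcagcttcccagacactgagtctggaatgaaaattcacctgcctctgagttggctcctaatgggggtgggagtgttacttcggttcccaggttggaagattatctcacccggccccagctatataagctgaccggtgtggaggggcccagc
CXCL8, chr4:73740319-73740568, plus strand: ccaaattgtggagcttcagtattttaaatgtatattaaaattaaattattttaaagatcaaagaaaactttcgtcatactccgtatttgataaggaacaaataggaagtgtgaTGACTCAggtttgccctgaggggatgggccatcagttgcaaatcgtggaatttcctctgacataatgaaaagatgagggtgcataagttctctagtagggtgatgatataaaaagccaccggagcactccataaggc
CD68, chr17:7579388-7579637, plus strand: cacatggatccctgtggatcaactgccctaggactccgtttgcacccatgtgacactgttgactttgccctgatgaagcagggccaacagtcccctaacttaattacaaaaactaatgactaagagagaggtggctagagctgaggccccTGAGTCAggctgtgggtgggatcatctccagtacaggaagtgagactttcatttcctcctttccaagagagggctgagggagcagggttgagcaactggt
SPRR1B, chr1:153030953-153031202, plus strand: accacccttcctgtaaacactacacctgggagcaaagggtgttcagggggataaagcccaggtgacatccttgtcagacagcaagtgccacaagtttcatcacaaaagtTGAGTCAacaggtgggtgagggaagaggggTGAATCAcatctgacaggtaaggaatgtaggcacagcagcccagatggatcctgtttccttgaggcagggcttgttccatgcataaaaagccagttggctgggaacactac
The motif began 195 bases before the start in ANKRD1, 137 in CXCL8 and 100 in CD68, and SPRR1B held a pair, at 141 and 111 bases. SPRR1B was added after its values were seen. Of the promoter windows of the 21 genes named by the main rule that had one, only that of ANKRD1 held the motif. Among 69 windows of called list members, those of CD68, CXCL8, MT2A and SERPINB13 did, and among 47 windows of named members that were not called, 6 did. Of the 9401 windows of all protein-coding genes tested under TAM, 3.61% did.

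JUNB mRNA (ENSG00000171223.5, chromosome 19, 12791486 to 12793315, plus strand, GRCh38) was reduced in both JUNBi_TAM libraries. Its normalized counts, that is counts divided by DESeq2 size factors, were 2491 and 3474 in Ctrli_TAM and 596 and 863 in JUNBi_TAM. The groups did not overlap, and JUNB fell by 2.03 on the log2 scale (SE 0.35, DESeq2 adjusted p 5.8e-07), a 4.09-fold difference. The level that remained, 16.4 and 18.9 TPM, was above the 11.9 and 13.0 TPM of control cells under ETH.

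Several other AP-1 genes fell together with JUNB. FOS, BATF3 and ATF3 were also lower than in Ctrli_TAM with YAP siRNA and with STAT3 siRNA, as given below with the other knockdowns. Of 15 members tested, JUNB included, 5 fell and 1 rose (median log2 fold change -0.20, against 0.02 over all tested genes). Among all 13045 genes tested, 4.06% were called lower and 2.84% higher, or 6.9% in either direction. FOS, the founding partner of the JUN proteins, had normalized counts of 1292 and 1374 in Ctrli_TAM and 377 and 501 in JUNBi_TAM (-1.60, SE 0.17, adjusted p 7.5e-18). Neither FOS value of the knockdown reached a control value. BATF3, a JUN partner of the BATF group, changed by -1.92 (SE 0.34, adjusted p 8e-07), ATF3, a stress-induced partner, by -1.27 (SE 0.34, adjusted p 0.0037) and MAFK, a small MAF protein, by -1.07 (SE 0.27, adjusted p 0.0019). MAFK lies outside the rule for named genes and was taken up after its values were seen. When replicate number was added to the fit, ATF3 and MAFK lost their calls, and the list had 3 lower and 0 higher calls. In the fits without 1 library BATF3 ranged from -2.35 to -1.58, ATF3 from -1.34 to -1.18 and MAFK from -1.36 to -0.81.

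The other JUN and FOS genes were not called. JUN, the prototype of the family, was at 368 and 524 normalized counts in Ctrli_TAM and 610 and 664 in JUNBi_TAM (0.52, SE 0.20, adjusted p 0.07). The values for JUND and FOSL2 overlapped between the groups, with differences of -0.20 (adjusted p 0.68) and -0.04 (adjusted p 0.89). FOSL1, a FOS protein of invasive cells, was at 160 and 180 against 91.6 and 84.4 (-0.95, SE 0.32, adjusted p 0.031), and did not pass 0.01 although the groups did not overlap. Groups that do not overlap were common, at 65.1% of all tested genes. FOSB had 2 to 10 counts in each library, too few for a comparison.

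**Figure D1:**
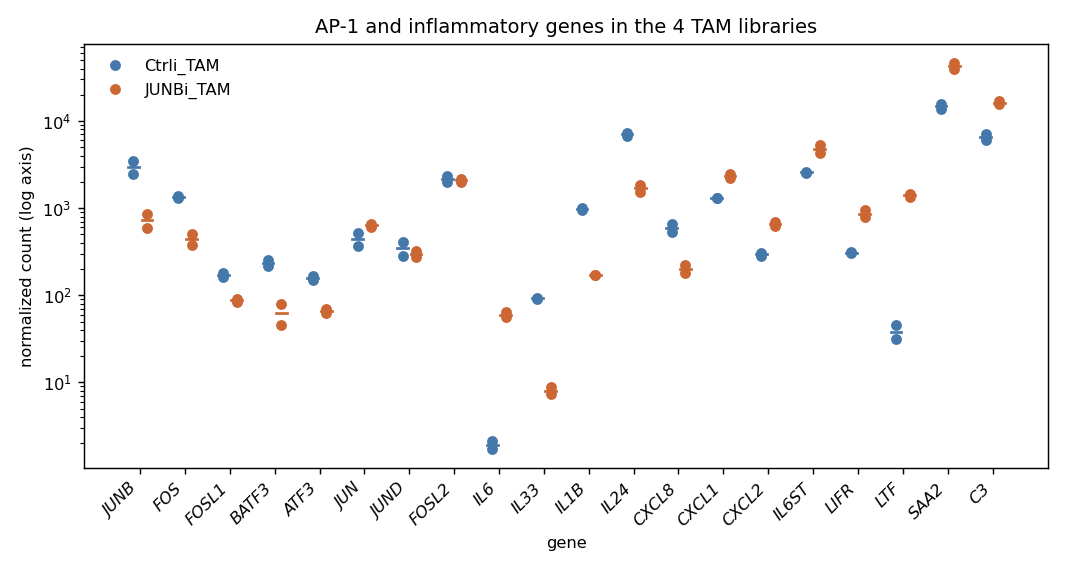
Normalized counts (log axis) of AP-1 and inflammatory genes in the 2 Ctrli_TAM libraries (blue) and the 2 JUNBi_TAM libraries (orange), with points for libraries and short lines for group means. JUNB, FOS, BATF3 and ATF3 were lower in both JUNBi libraries, whereas IL6, LTF and SAA2 were higher in both.

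In all, 900 of 13045 tested genes were called at an adjusted p under 0.01, 370 higher and 530 lower with JUNBi. At least 2-fold differences were seen for 341 of them, 106 higher and 235 lower. Without Ctrli_TAM replicate 1 the count was 234, without Ctrli_TAM replicate 2 it was 271, without JUNBi_TAM replicate 1 it was 260 and without JUNBi_TAM replicate 2 it was 534, so each count below rests on having both libraries of each group. Of 130 called genes named here other than JUNB, 61 kept their call in all 4 of these reduced fits, 68 lost it in at least 1, and IL33 had no adjusted p in 1. Those that kept it were the genes of the strongest changes apart from IP6K3, EHF and RNA5-8SN2, and FOS, IL24, CXCL8, CXCL1, CSF3, LIFR, IL6ST, HP, SAA1, SAA2, C3, CFB, S100A8, S100A9, BIRC3, DUSP6, AREG, TIMP1, SERPINB1, SERPINB13, SERPINA1, TNC, COL17A1, COL8A1, LAMB3, ITGA5, KRT14, KRT81, PPL, MDM2, TP53I3, NDRG1, PFKFB3, ADM, HMGCS1, TGFB2, NT5E, MIR205HG, ENTPD3, HMGA1, LTBP1, PTX3, THBS1 and CD68. No estimate of the 130 turned its direction.

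The 10 genes that rose most, among those whose normalized counts averaged 100 or more and whose groups did not overlap, held LTF, ANKRD1, EHF, ELF3 and TIMP3. Of these, EHF, ELF3 and TIMP3 were not called against the other knockdowns under TAM, as given below. LTF (ENSG00000012223.12, chromosome 3, 46435645 to 46485234, minus strand) encodes lactoferrin, an iron-binding antimicrobial protein of milk and mucosa. It was at 45.6 and 31.1 normalized counts in Ctrli_TAM and 1339 and 1457 in JUNBi_TAM (log2 fold change 5.14, SE 0.25, adjusted p 9.4e-92), a 35.3-fold rise. ANKRD1, an ankyrin-repeat protein known as a YAP target, was at 32.9 and 41.5 against 416 and 358 (3.40, SE 0.32, adjusted p 5e-24). The transcription factors EHF and ELF3, both epithelial ETS proteins, rose by 2.06 (SE 0.37) and 1.98 (SE 0.21). TIMP3, an inhibitor of metalloproteinases, went from 62.6 and 62.2 to 332 and 305 (2.35, SE 0.29, adjusted p 2.9e-13). The other genes of this set were ACSL5, which activates fatty acids (2.94), IGFL1, a secreted insulin-like growth factor relative (2.69), IP6K3, an inositol phosphate kinase (2.10), ETNK2, an ethanolamine kinase (2.09), and TP53INP1, a p53 target (1.97).

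The 10 genes that fell most by the same rule held TMPRSS4, ADAMTS4, STC1, ADAM19 and IL1B. TMPRSS4, a serine protease of the cell surface, was at 364 and 361 normalized counts in Ctrli_TAM and 35.9 and 36.0 in JUNBi_TAM (-3.33, SE 0.29, adjusted p 1.3e-27). ADAMTS4, an aggrecan-cleaving metalloproteinase, was at 1072 and 950 against 111 and 97.7 (-3.28, SE 0.19, adjusted p 4e-60). STC1, the secreted glycoprotein stanniocalcin, was at 4451 and 3628 against 456 and 435 (-3.18, SE 0.14, adjusted p 1.9e-109). In each of the 3 genes the knockdown values were below both controls, which the rule for this set requires. IL1B (chromosome 2, 112829751 to 112836816, minus strand), the cytokine interleukin-1 beta, fell from 994 and 955 to 173 and 173 (-2.50, SE 0.18, adjusted p 5e-41). ADAM19, a membrane metalloproteinase, changed by -3.23, RGS16, a regulator of G protein signaling, by -3.07, GRAMD1B, a cholesterol transfer protein, by -2.90 and NIPAL4, a magnesium transporter, by -2.80. ADAM19 and NIPAL4 overlap in the genome and their reads may not be separable. Whether counting used the strand is not given in the sources used here, and JUNB (HOOK2), IL6 (STEAP1B), ACSL5 (ZDHHC6), TIMP3 (SYN3), TMPRSS4 (SMIM35), IL24 (FCMR), TIMP1 (SYN1) and MDM2 (CPM) are among the named genes whose interval overlaps the protein-coding gene in parentheses.

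A pair of genes in the list of strongest falls is uncertain. H3C4, a replication-dependent histone H3 gene, had 222 and 163 counts in Ctrli_TAM and 1 and 0 in JUNBi_TAM, a ratio of 690 in which a total of 1 count in JUNBi leaves a 95% exact interval of 123 to 27323 (counting error only). It has near-identical copies among which RSEM divides reads. RNA5-8SN2 is one of several identical copies of 5.8S ribosomal RNA, and its JUNBi values of 2404 and 6162 differed from each other. Of the genes that changed most, IP6K3 lost its call without Ctrli_TAM replicate 1 (1.77), JUNBi_TAM replicate 1 (2.26) and JUNBi_TAM replicate 2 (1.92). RNA5-8SN2 lost it without either control library (-2.49 and -2.37), and EHF without JUNBi_TAM replicate 1 (1.94).

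**Figure D2:**
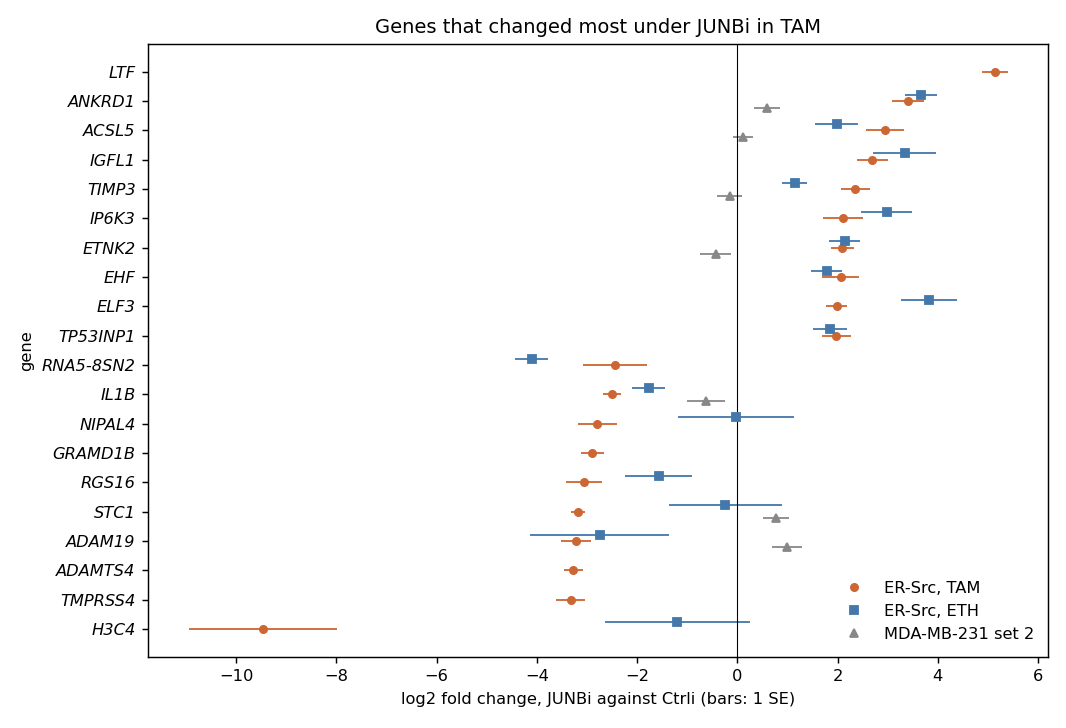
Log2 fold change of JUNBi against Ctrli (horizontal axis, bars 1 SE) for the 10 genes that rose and the 10 that fell most under TAM, in ER-Src under TAM (orange), ER-Src under ETH (blue) and MDA-MB-231 set 2 (grey). Estimates without an adjusted p are not drawn. LTF reached 5.14 and H3C4 -9.46 under TAM, whereas STC1 was at -0.24 under ETH.

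Inflammatory genes did not move as a block. Of 13 tested cytokines of the IL-6, IL-1 and CSF families, 5 rose and 4 fell (median 0.30). Over all tested genes 2.84% were called higher and 4.06% lower. None of the 5 higher calls held in every fit without 1 library, whereas those of IL1B, IL24 and CSF3 did. IL6 (chromosome 7, 22725884 to 22732002, plus strand), the cytokine that signals through gp130 to STAT3, had only 2 and 1 counts in Ctrli_TAM and 87 and 76 in JUNBi_TAM, which gave a ratio of 30.3 with a 95% exact interval of 10.2 to 149. The DESeq2 estimate was 4.93 (SE 1.03, adjusted p 6.4e-05). Its call was lost without Ctrli_TAM replicate 1 (5.12, adjusted p 0.055) and without JUNBi_TAM replicate 1 (4.84, adjusted p 0.038), and its level of 3.69 and 2.86 TPM in JUNBi_TAM was low. LIF, a further ligand of gp130, rose by 1.12 (adjusted p 0.0019), IL32 by 1.17, CSF1, the macrophage growth factor, by 0.84 and IL18 by 0.82. In the other direction IL33, an alarmin, was at 91.2 and 93.3 normalized counts against 7.33 and 8.81 (-3.51, SE 0.56, adjusted p 3.8e-08). IL24 was at 7281 and 6733 against 1839 and 1523 (-2.06, SE 0.13, adjusted p 6.7e-57), and CSF3, the granulocyte growth factor, changed by -0.85. IL1A, the partner of IL1B at the IL-1 receptor, was not called (0.44, adjusted p 0.11). LIF, IL32, CSF1, IL18 and CSF3 were taken up after their values were seen.

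Chemokines that act on the same neutrophil receptor went opposite ways. CXCL8 was at 538 and 653 normalized counts in Ctrli_TAM and 221 and 181 in JUNBi_TAM (-1.56, SE 0.21, adjusted p 4.9e-11). CXCL1 rose from 1300 and 1306 to 2472 and 2213 (0.85, SE 0.13, adjusted p 7.5e-09) and CXCL2 from 285 and 308 to 689 and 616 (1.14, SE 0.19, adjusted p 2.4e-07). For each of the 3 chemokines both JUNBi libraries lay on one side of both controls, as they did for 65.1% of all tested genes. They were the called members among 8 tested (2 higher, 1 lower, median 0.03), and CCL20 was not called (0.43, adjusted p 0.042). The share called in either direction over all tested genes was 6.9%.

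A pair of receptor genes of the IL-6 family rose. LIFR, which pairs with gp130, was at 303 and 313 normalized counts in Ctrli_TAM and 946 and 787 in JUNBi_TAM (1.49, SE 0.19, adjusted p 2.1e-13), and IL6ST, which encodes gp130 itself, was at 2500 and 2628 against 5309 and 4281 (0.90, SE 0.13, adjusted p 6.4e-10). The kinase PIM1, a STAT3 target, fell by 1.18 on the log2 scale (SE 0.25, adjusted p 7.4e-05). These were the 2 higher and 1 lower calls of 16 tested genes of gp130 signaling (median 0.23), against 6.9% of all tested genes. STAT3 itself (0.28, adjusted p 0.11) and its feedback inhibitor SOCS3 (-0.35, adjusted p 0.037) were not called.

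Acute phase and antimicrobial genes changed often, with 7 of 16 tested members higher and 4 lower (median 0.74). The shares over all tested genes were 2.84% and 4.06%. Besides LTF, the haptoglobin gene HP was at 141 and 112 normalized counts against 421 and 535 (1.90, SE 0.25, adjusted p 5.5e-12). SAA2, a serum amyloid, was at 15500 and 13840 against 39960 and 45940 (1.55, SE 0.11, adjusted p 1e-39), and complement C3 at 7141 and 6089 against 15740 and 16750 (1.30, SE 0.11, adjusted p 6e-27). SAA1 (1.04), complement factor CFB (1.06) and SERPINA3 (0.44) completed the higher calls. SAA1 and SAA2 are near-identical and their counts may be split. The calprotectin subunits S100A8 and S100A9 fell, by 0.62 and 1.08 on the log2 scale, as did SERPINB3 and SERPINB4. SAA1, CFB, SERPINA3, S100A8, S100A9, SERPINB3 and SERPINB4 were named after their values were seen. Of 14 NF-kB subunits and regulators, BIRC3, an inhibitor of apoptosis (1.06, SE 0.14), and TNFAIP2 (0.78, SE 0.16) rose and none fell, and the inhibitor NFKBIA was not called (-0.18, adjusted p 0.37).

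The list of MAP kinase feedback genes holds ERK-induced transcription factors such as EGR1 and ETV4 beside inhibitors of the pathway. Its members fell in 9 of 18 tested cases and rose in none (median -0.67). Over all tested genes, 4.06% were called lower and 2.84% higher. Here EGR1, an immediate early factor, changed by -1.97 (SE 0.51, adjusted p 0.0022), the ETS factor ETV4 by -1.77 (SE 0.38, adjusted p 0.00012), and SPRY4, a Sprouty inhibitor, by -1.08 (SE 0.20, adjusted p 5.9e-06). The ERK phosphatase DUSP6 was at 699 and 835 normalized counts in Ctrli_TAM and 251 and 268 in JUNBi_TAM (-1.56, SE 0.19, adjusted p 4.2e-14). A relative, DUSP5, was not called (-0.58, adjusted p 0.042). The 9 lower calls became 1 to 4 when 1 library was left out. Of the receptors and ligands of the EGF family, 3 of 12 tested genes rose and none fell: the ligand genes AREG (0.95, SE 0.12) and EPGN (0.69, SE 0.20) and ERRFI1, an inhibitor of the EGF receptor (0.84, SE 0.16).

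Of 17 tested textbook AP-1 targets, 7 fell and none rose (median -0.42), against 4.06% of all tested genes called lower. Besides CXCL8, these included TIMP1, an inhibitor of metalloproteinases, at 7210 and 7585 normalized counts against 2895 and 3739 (-1.16, SE 0.13, adjusted p 8.9e-16). VEGFA, the vascular growth factor, changed by -0.84 (SE 0.13). The collagenase MMP1 and the stromelysin MMP3, classical AP-1 targets looked up after the lists were read, had mean normalized counts of 1.86 and 10.9 and received no adjusted p.

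Called protease, matrix and adhesion genes were more often lower than higher, as were all called genes (4.06% of tested genes lower and 2.84% higher). Metalloproteinases and their inhibitors had 6 lower and 1 higher call among 18 tested (median 0.08), with ADAMTS6 at -1.83 (SE 0.42) and ADAM8 at -1.79 (SE 0.41) beside ADAM19. TIMP3 rose while TIMP1 fell. Of 13 tested genes of the urokinase system and its serpins, 5 fell and none rose (median -0.40). SERPINB1, an inhibitor of neutrophil proteases, was at 6343 and 6206 normalized counts against 2201 and 1973 (-1.59, SE 0.11, adjusted p 1.1e-40). SERPINB13 changed by -1.33 (SE 0.20), and SERPINA1 went from 6464 and 6019 to 2815 and 3411 normalized counts (adjusted p 2.1e-13).

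Matrix genes had 8 lower and 2 higher calls of 27 tested (median -0.20), beside 4.06% and 2.84% of all tested genes. TNC, the matrix glycoprotein tenascin C, was at 3593 and 2675 normalized counts against 1026 and 1167 (-1.52, SE 0.15, adjusted p 5.9e-20). The hemidesmosome collagen COL17A1 changed by -1.07 (SE 0.12) and LOXL2, which crosslinks collagen, by -1.01 (SE 0.19), whereas the collagen COL8A1 rose by 1.10 (SE 0.14). Among 13 integrins 5 fell and 1 rose (median -0.47). ITGA5, the fibronectin receptor subunit, was at 2969 and 2799 normalized counts against 1034 and 1101 (-1.43, SE 0.13, adjusted p 2.4e-27). ITGA2 changed by -0.90 (SE 0.18) and ITGA10 by -1.74 (SE 0.46), and ITGA1 was the member that rose (0.72, SE 0.18). The common beta subunit ITGB1 was not called (-0.20, adjusted p 0.25).

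Called keratins were more often lower than higher, as were all called genes (4.06% of tested genes lower and 2.84% higher). KRT14, the keratin of basal epithelium, was at 8665 and 9183 normalized counts in Ctrli_TAM and 1887 and 2456 in JUNBi_TAM (-2.04, SE 0.13, adjusted p 3.8e-49). KRT81 (-0.95, SE 0.14) and KRT6B (-0.66, SE 0.16) fell too, the luminal keratin KRT8 rose (0.64, SE 0.13), and of 15 keratins tested 4 were lower and 1 higher (median -0.28). KRT6B and KRT81 have near-identical relatives, so their counts may be split. The KRT14 partner KRT5 was not called (-0.26, adjusted p 0.11). TP63, the master factor of basal cells, was at 240 and 187 normalized counts against 100 and 72.0 (-1.31, SE 0.32, adjusted p 0.0011) and SOX15 changed by -1.44 (SE 0.35). KLF4, a factor of epithelial differentiation, was at 19.1 and 17.3 against 83.5 and 80.8 (2.17, SE 0.54, adjusted p 0.0014), in the same direction as EHF and ELF3. Lineage factors together had 3 higher and 5 lower calls of 18 (median -0.49).

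Of 9 tested genes of the cornified envelope, the plakin PPL (1.51, SE 0.19) and KRT13 rose and the transglutaminase TGM1 changed by -0.75 (SE 0.19, median of the list -0.12). KRT13 had 2 counts in each control library and 53 and 99 in JUNBi_TAM. CDH1, the epithelial cadherin, was at 537 and 432 normalized counts against 944 and 853 (0.88, SE 0.18, adjusted p 2.5e-05), the only call among 18 genes of the epithelial-mesenchymal transition (median -0.17). For all tested genes the share called in either direction was 6.9%.

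The cell cycle lists differed in their calls, against 4.06% of all tested genes called lower. Of 26 replication genes 1, TK1, fell (-0.97, SE 0.18, adjusted p 6.5e-06), with a list median of -0.06. Among 26 mitosis genes 5 fell and none rose (median -0.35), with MKI67, the proliferation marker, at 4747 and 3386 normalized counts against 2185 and 2200 (-0.89, SE 0.15, adjusted p 2.5e-07). PLK1 changed by -0.79 (SE 0.18), BIRC5 by -0.56 (SE 0.15) and KIF20A by -0.47 (SE 0.12), and CCNB1, the mitotic cyclin, was not called (-0.41, adjusted p 0.017). Without 1 library the mitosis calls were 0 or 1. The cyclin gene CCNE2 rose (1.20, SE 0.34, adjusted p 0.0056), the only call among 16 genes of the G1 phase (median 0.10), and MYC was not called (-0.22, adjusted p 0.29).

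Targets of the tumor suppressor p53 had 6 higher and no lower calls of 20 (median 0.34), against 2.84% and 4.06% of all tested genes. MDM2, the ubiquitin ligase of p53, was at 1565 and 1460 normalized counts against 3304 and 2584 (0.96, SE 0.14, adjusted p 3e-09). BTG2, an antiproliferative gene (1.10, SE 0.24), and TP53I3, an oxidoreductase (1.05, SE 0.15), rose beside TP53INP1, and the pore-forming protein gene BAX was not called (0.33, adjusted p 0.28). The 6 calls were 3 to 5 when 1 library was left out. In the BCL2 and caspase inhibitor list, 3 of 15 tested genes rose and 1 fell (median 0.12). HRK, a killer protein of the BH3 class, was at 32.9 and 41.5 against 139 and 147 normalized counts (1.96, SE 0.41, adjusted p 5.4e-05), and the survival protein gene MCL1 changed by -0.63 (SE 0.11).

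Genes of glycolysis and the hypoxia response were lower in 11 and higher in 1 of 27 tested cases (median -0.44). The shares over all tested genes were 4.06% lower and 2.84% higher. NDRG1, a hypoxia-induced gene, was at 5004 and 4471 normalized counts in Ctrli_TAM and 1580 and 1962 in JUNBi_TAM (-1.42, SE 0.14, adjusted p 4.6e-23). PFKFB3, which drives glycolysis, was at 1210 and 980 against 435 and 486 (-1.25, SE 0.17, adjusted p 4.5e-11). EGLN3, an oxygen sensor, had 71 and 31 counts in Ctrli_TAM and 2 and 3 in JUNBi_TAM, a ratio of 36.6 with a 95% exact interval of 15.2 to 115. ADM, the vasodilator adrenomedullin, was the gene that rose (1.40, SE 0.18, adjusted p 4.1e-12). The abundant enzymes ENO1 (-0.22, adjusted p 0.16) and LDHA (-0.27, adjusted p 0.051) were not called. The 11 lower calls were 5 with edgeR and 2 to 9 when 1 library was left out.

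Lipid synthesis genes split, with 7 higher and 2 lower calls of 26 (median 0.29), against 2.84% and 4.06% of all tested genes. The cholesterol pathway genes HMGCS1 (0.75, SE 0.11, adjusted p 2.9e-09) and IDI1 (0.68, SE 0.14) rose, while FASN, the fatty acid synthase (-1.03, SE 0.16), and SREBF2, a regulator of cholesterol synthesis (-0.87, SE 0.17), fell. With edgeR the higher calls of this list were 2, with the lower calls again 2. YAP/TAZ targets had 5 higher and 1 lower call of 26 (median -0.07). These held ANKRD1, TGFB2, the growth factor (139 and 206 against 643 and 539 normalized counts, 1.80, SE 0.24, adjusted p 6.7e-12), and FSTL1 (0.69, SE 0.12), with NT5E at -0.91 (SE 0.15).

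The calls of the remaining lists stand against 6.9% of all tested genes called in either direction. They numbered 2 higher and 2 lower of 19 for SRF targets (median -0.15), 1 and 2 of 19 for TGF-beta genes (0.08), 2 and 1 of 23 for interferon-stimulated genes (0.44), 1 and 2 of 23 for the ATF4 and unfolded protein response (0.03), 0 and 2 of 19 for NRF2 genes (0.14), 0 and 0 of 8 for prostaglandin genes (0.00), 1 and 1 of 4 for metallothioneins (-0.30) and 2 and 2 of 9 for long noncoding RNAs (0.18). Of 6 RNAs without a poly(A) tail, DESeq2 and edgeR called 0, and SNORD3A (0.02, adjusted p 0.95) and RN7SL1 (-0.11, adjusted p 0.66) stand for them. Among 13 line markers CDH1 rose and KRT14, TP63, LAMB3 and KRT6A, the last named after its values were seen, fell (median -0.26). CD68, a lysosomal protein used as a macrophage marker, was at 348 and 297 normalized counts in Ctrli_TAM and 63.7 and 63.1 in JUNBi_TAM (-2.35, SE 0.28, adjusted p 1.2e-14). It was 1 of 2 immune markers that could be tested, with CD14 at -0.79 (adjusted p 0.011), and the summed level of the 8 markers was 19 to 21 TPM in Ctrli_TAM and 8.01 to 9.99 TPM in JUNBi_TAM. Of 4 tested fibroblast, endothelial and luminal markers DCN fell (-0.52), and that list summed to 68.4 to 69.8 TPM in Ctrli_TAM and 44.7 to 52.2 TPM in JUNBi_TAM. The part of other cell types in these results was not tested, and in such bulk libraries fewer cells of a type and less RNA per cell cannot be told apart.

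**Figure D3:**
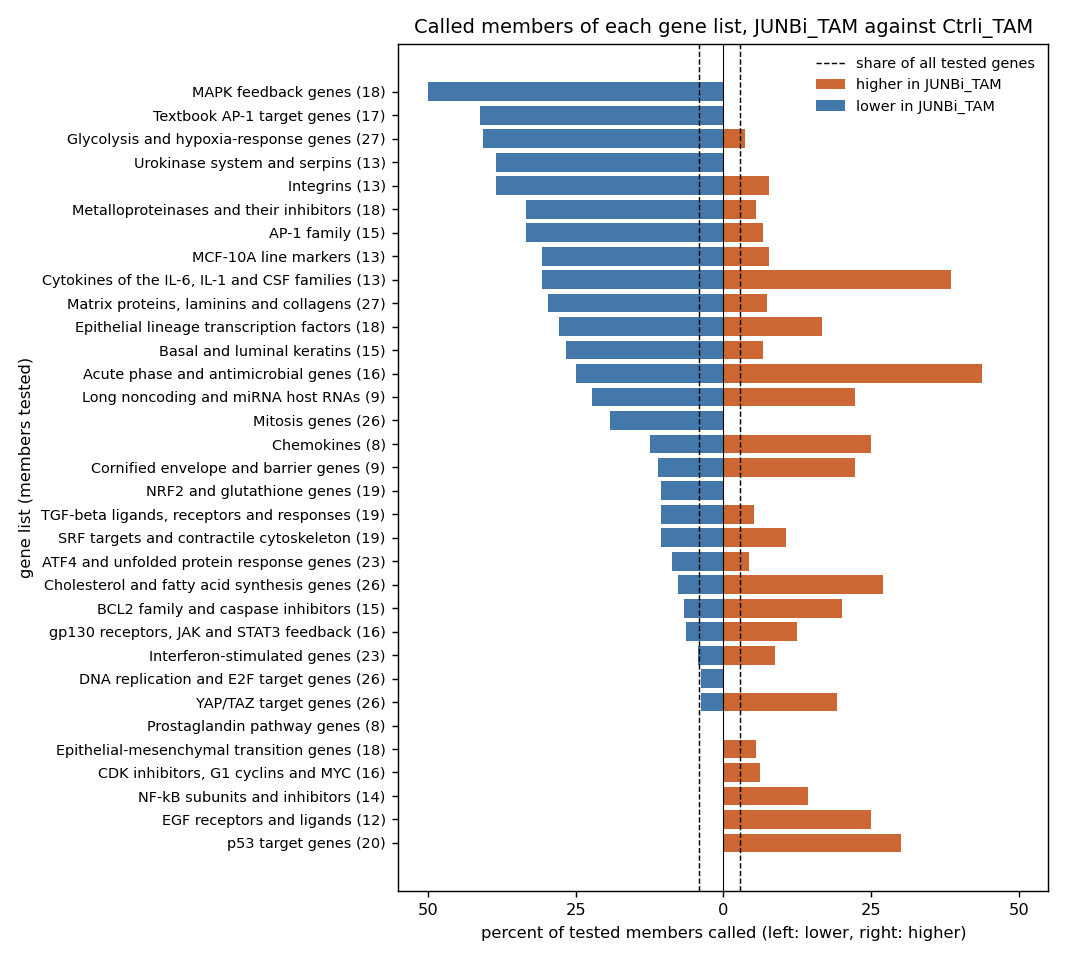
Percent of tested members of each gene list (vertical axis, members tested in parentheses) that were called lower (left, blue) or higher (right, orange) in JUNBi_TAM, with dashed lines at 4.06% and 2.84%, the shares over all tested genes. MAPK feedback genes had 9 of 18 lower and p53 targets 6 of 20 higher.

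To ask whether these differences belonged to the Src-activated state, the same siRNA was examined under ETH, in 4 libraries that share none with the TAM comparison. The gap between length and effective length was again 49.49 bases in Ctrli_ETH and 49 bases in JUNBi_ETH. Calls shared by TAM and ETH therefore cannot be told apart from this difference between libraries. The 2 JUNBi_ETH libraries differed from each other by an SD of 0.685, the largest of the 10 ER-Src groups. JUNB was at 11.9 and 13.0 TPM in Ctrli_ETH and 3.90 and 8.55 TPM in JUNBi_ETH (-1.16, SE 0.39, adjusted p 0.064). Both knockdown values were below both controls. Groups that do not overlap made up 50.5% of all tested genes here. Under ETH 421 genes were called (2.8% of 15009 tested, 1.19% higher and 1.61% lower). Of the 900 genes called under TAM, 871 were tested under ETH and 184 were called there, 181 in the same direction. The 184 shared genes were 20.4% of the TAM calls and 43.7% of the ETH calls. Estimates had the same sign for 789 of the 871. Of the 10 genes that rose most under TAM, ANKRD1 (3.66), ACSL5 (1.98), IGFL1 (3.34), TIMP3 (1.14), IP6K3 (2.98), ETNK2 (2.14), EHF (1.78), ELF3 (3.82) and TP53INP1 (1.85) were also called higher under ETH, and of the 10 that fell most IL1B (-1.77) and RNA5-8SN2 (-4.10), the uncertain ribosomal RNA copy, were called lower. LTF was at most 0.17 TPM in the ETH libraries. Under ETH edgeR called 1 gene, with 2661 at an unadjusted p under 0.05, and leaving out JUNBi_ETH replicate 1 or 2 gave 939 and 1375 calls.

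Whether the JUNBi effect differed between TAM and ETH was tested as an interaction term. It was called for 46 of 15949 genes (0.288%), 11 with a higher (0.069%) and 35 with a lower effect under TAM (0.219%). For 24.2% of all tested genes the 4 ratios of a JUNBi to a Ctrli library under TAM all lay on the same side of the 4 ratios under ETH. NDRG1 was at 26.7 and 26.5 TPM in Ctrli_ETH, 60.5 and 69.1 in JUNBi_ETH, 102 and 80.4 in Ctrli_TAM and 37.7 and 34.0 in JUNBi_TAM. It thus rose with JUNBi under ETH (1.85, SE 0.24) and fell under TAM, an interaction of -3.29 (SE 0.27, adjusted p 3.4e-29). The noncoding RNA LINC01127 had the same form, with 1.68 under ETH, -1.38 under TAM and an interaction of -3.08 (SE 0.45, adjusted p 3.5e-08). STC1 and ADAMTS4 were nearly silent under ETH, at most 0.19 and 0.15 TPM, and had interactions of -2.98 (SE 0.51, adjusted p 6.5e-06) and -4.08 (SE 0.95, adjusted p 0.0072). At these levels neither gene had a measurable effect of JUNBi under ETH, where STC1 was at -0.24 (SE 1.12, adjusted p 0.99) and ADAMTS4 at 0.78 (SE 2.12) with no adjusted p.

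Interactions were called for 3 of 16 tested keratins, 2 of 13 genes of the urokinase system and serpins, 1 of 14 cornified envelope genes and 0 of 20 lineage factors, all with a lower effect under TAM. SERPINB1 had a difference of 0.20 under ETH (adjusted p 0.89) and an interaction of -1.81 (SE 0.25, adjusted p 3.9e-09). SERPINB13 was at 0.72 under ETH (adjusted p 0.73) with an interaction of -2.08 (SE 0.43, adjusted p 0.00099), and TGM1 at 0.94 (adjusted p 0.032) with an interaction of -1.72 (SE 0.36, adjusted p 0.00099). KRT17, a keratin of stressed epithelium, was at 395 and 363 TPM in Ctrli_ETH and 763 and 908 in JUNBi_ETH (1.10, SE 0.26), with -0.18 under TAM and an interaction of -1.30 (SE 0.31, adjusted p 0.0085). The metallothionein MT1E had an interaction of 1.17 (adjusted p 0.0028), with -0.71 under ETH and 0.48 under TAM. JUNB itself was not called (-0.90, SE 0.77, adjusted p 1), and FOSL2 missed the threshold (-1.17, SE 0.29, adjusted p 0.015). The interaction calls were 0 with edgeR (1337 genes at an unadjusted p under 0.05), 480 without JUNBi_ETH replicate 1, 105 without JUNBi_ETH replicate 2 and 18 to 43 without any 1 of the other libraries.

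**Figure D4:**
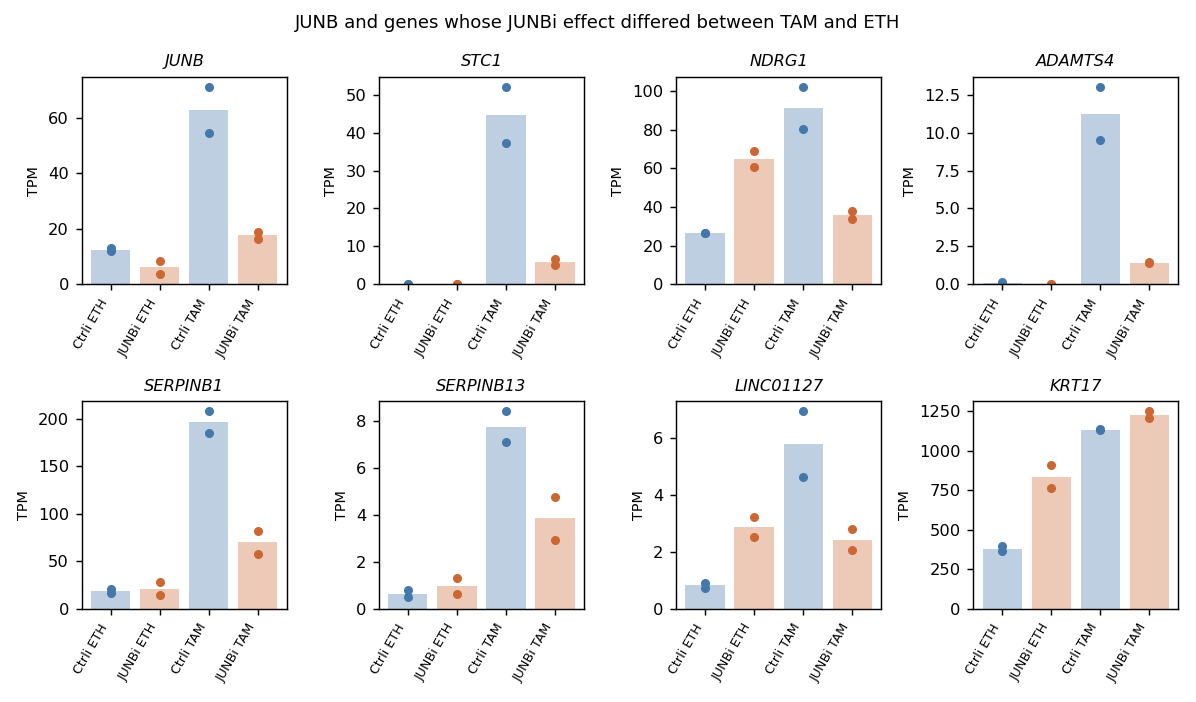
TPM (vertical axes, linear from 0) of JUNB and of 7 genes called in the interaction, in Ctrli (blue) and JUNBi (orange) under ETH and TAM, with points for the 2 libraries of each group and bars for their mean. NDRG1 rose with JUNBi under ETH and fell under TAM, and STC1 was detected above 0.19 TPM only under TAM.

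JUNBi_TAM was also set against the mean of the YAPi, TAZi and STAT3i libraries under TAM, a reference that uses no control library but shares the JUNBi_TAM libraries with the comparison above. It called 956 of 14419 genes (6.63%), 387 higher (2.68%) and 569 lower (3.95%). JUNB was at 16.4 and 18.9 TPM in JUNBi_TAM, 54.8 and 43.3 in YAPi_TAM, 64.2 and 62.8 in TAZi_TAM and 14.4 and 14.9 in STAT3i_TAM. STAT3i libraries therefore held no more JUNB mRNA than JUNBi libraries, and the difference from the mean of the 3 knockdowns was -1.07 (SE 0.13, adjusted p 1.5e-14). Mean TPM of FOS was 33.1 in Ctrli_TAM, 12.1 in JUNBi_TAM, 8.91 in YAPi_TAM, 21.1 in TAZi_TAM and 4.14 in STAT3i_TAM. In the same order BATF3 was at 12.1, 3.89, 1.82, 9.82 and 1.42, and ATF3 at 4.29, 1.97, 2.0, 5.08 and 0.79. FOS (0.45, adjusted p 0.12), BATF3 (0.41, adjusted p 0.54) and ATF3 (0.05, adjusted p 0.96) were not called against the other knockdowns. TPM ratios of JUNBi_TAM to Ctrli_TAM ran above count ratios, with a median log2 ratio of 0.22 against 0.03 over 9519 genes, so levels across groups are best read beside that shift. The gap between length and effective length was 49 bases in JUNBi_TAM and STAT3i_TAM, 49.48 in YAPi_TAM and 49.49 in TAZi_TAM. Likeness between JUNBi and STAT3i libraries cannot be told apart from this shared gap.

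IGFL1 (4.36, SE 0.37), LTF (3.70, SE 0.95), ANKRD1 (3.39, SE 0.24) and ETNK2 (2.64, SE 0.19) stood highest in JUNBi_TAM against the other knockdowns among genes whose normalized counts averaged 100 or more. ANKRD1 was at 10.5 and 7.18 TPM in JUNBi_TAM, 4.37 and 3.01 in STAT3i_TAM and between 0.27 and 0.43 in YAPi_TAM and TAZi_TAM. LTF was at 27.8 and 24.3 TPM in JUNBi_TAM, 15.6 and 16.1 in TAZi_TAM and 0.14 and 0.01 in STAT3i_TAM, and its YAPi_TAM libraries were apart at 13.3 and 1.47. IL6 was at 3.69 and 2.86 TPM in JUNBi_TAM and at 0.05 to 0.49 TPM in the other knockdowns (3.86, SE 0.57, adjusted p 1.7e-09). SAA2 was at 3570 and 3310 TPM, above 1260 and 550 in YAPi_TAM, 2580 and 2270 in TAZi_TAM and 209 and 155 in STAT3i_TAM (2.15, adjusted p 4.9e-09). EHF (-0.36, DESeq2 adjusted p 0.23), ELF3 (1.11, adjusted p 0.047) and TIMP3 (0.61, adjusted p 0.025) were not called here. Mean TPM of EHF was 0.84 in Ctrli_TAM, 3.33 in JUNBi_TAM, 6.72 in YAPi_TAM, 3.21 in TAZi_TAM and 3.26 in STAT3i_TAM. In the same order ELF3 was at 4.91, 22.7, 20.0, 32.5 and 1.04, and TIMP3 at 0.51, 3.06, 0.885, 1.59 and 4.72.

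Lower than in the other knockdowns were H3C4 (-8.34), A2ML1, a protease inhibitor (-6.44), ENTPD3, an ectonucleotidase (-5.65), and SPRR1B, a cornified envelope protein (-4.87). ENTPD3 was at 0.09 and 0.08 TPM in JUNBi_TAM, 2.30 and 1.68 in Ctrli_TAM, between 7.87 and 10.9 in YAPi_TAM and TAZi_TAM, and 0.48 and 0.36 in STAT3i_TAM, so it was furthest below YAPi and TAZi. A2ML1 and SPRR1B reached 5.64 to 7.46 and 20.4 to 26.2 TPM in YAPi_TAM and were under 1 TPM in the other TAM libraries, so their differences rest on YAPi. IL1B was at 6.97 and 5.13 TPM in JUNBi_TAM and between 25.8 and 41.2 in all 6 other knockdown libraries (-2.55, SE 0.16, adjusted p 2.1e-54). CXCL8 was at 7.20 and 5.02 TPM against 15.9 to 36.5 (-2.21, SE 0.16, adjusted p 6.9e-41). Groups without overlap made up 14.4% of all genes tested in this comparison. For both genes the control libraries lay between or within these ranges, at 31.6 and 28.8 TPM for IL1B and 14.5 and 15.2 TPM for CXCL8. STC1 (0.30, adjusted p 0.31), NDRG1 (0.11, adjusted p 0.68) and ADAM19 (-0.41, adjusted p 0.57) were not called here. Nor were TMPRSS4 (-0.16, adjusted p 0.94), ADAMTS4 (-0.37, adjusted p 0.85) or GRAMD1B (-0.17, adjusted p 0.8), whereas RGS16 was called lower (-2.30, adjusted p 1.3e-15). Mean TPM of STC1 was 44.7 in Ctrli_TAM, 5.96 in JUNBi_TAM, 3.16 in YAPi_TAM, 15.6 in TAZi_TAM and 1.75 in STAT3i_TAM. In the same order ADAMTS4 was at 11.2, 1.42, 2.39, 9.19 and 0.335, and TMPRSS4 at 9.13, 1.02, 1.2, 6.92 and 0.305.

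**Figure D5:**
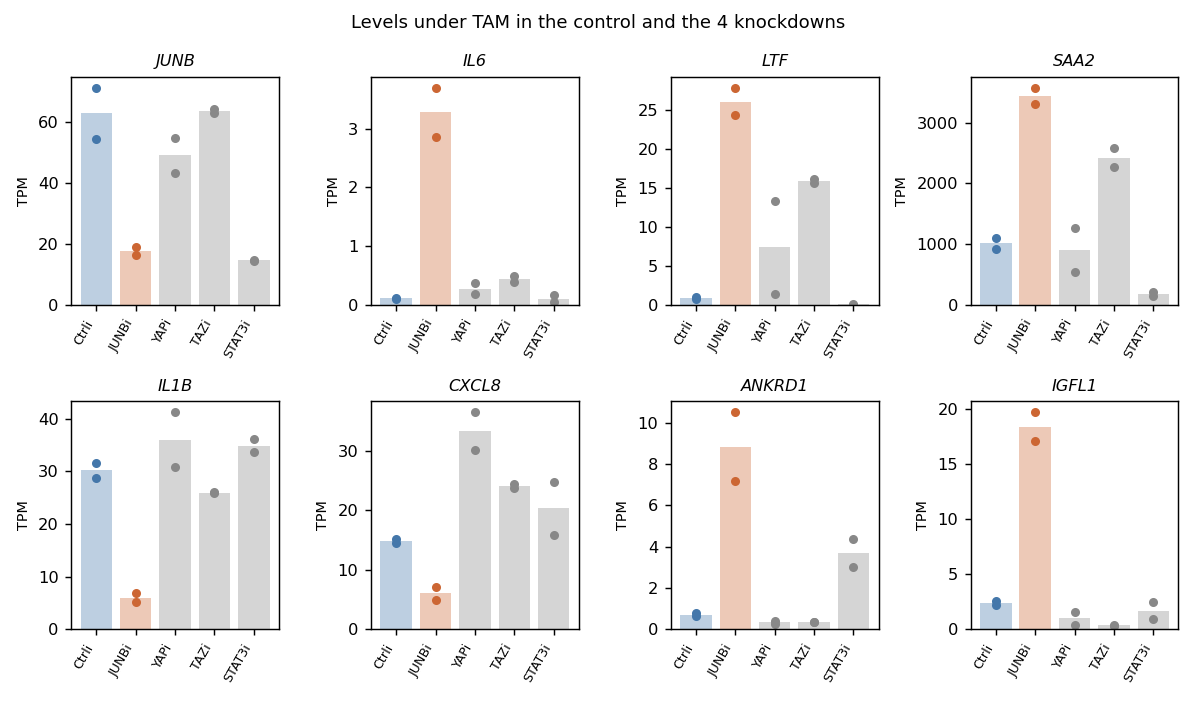
TPM (vertical axes, linear from 0) of 8 genes under TAM in Ctrli (blue), JUNBi (orange) and YAPi, TAZi and STAT3i (grey), with points for the 2 libraries of each group and bars for their mean. IL6 and ANKRD1 were highest in JUNBi, IL1B and CXCL8 were lowest there, and JUNB was low in JUNBi and STAT3i.

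In MDA-MB-231, an established triple-negative breast cancer line, JUNBi libraries of the second set were compared with their own controls. JUNB was at 31.6 and 18.7 TPM in Ctrli and 6.70 and 7.99 TPM in JUNBi (-2.04, SE 0.31, adjusted p 2.3e-08), with no overlap of the groups, as for 61.7% of all tested genes. DESeq2 called 272 genes (3.41% of 7966 tested), 20 higher (0.251%) and 252 lower (3.16%), and edgeR called 0, with 2605 at an unadjusted p under 0.05. The count was 833 without Ctrli replicate 3 and 10 to 36 without any 1 of the other libraries. Of the 900 genes called in ER-Src under TAM, 547 were tested and 52 called (5.78% of the TAM calls and 19.1% of the calls here), 46 in the same direction, and estimates had the same sign for 379 of the 547. CD68 fell in this line too (-1.26, adjusted p 3.3e-07). IL6, at 27.6 and 16.0 TPM in its controls, was not called (0.63, adjusted p 0.22), nor was ANKRD1 (0.59, adjusted p 0.13). The listed RNAs without a poly(A) tail made up 0.0036% to 0.0092% of counts in these MDA-MB-231 libraries and 9.4% to 11.7% in the ER-Src libraries. The gap between length and effective length was 74.52 to 74.53 bases in MDA-MB-231 and 49 to 49.49 bases in ER-Src. Such differences between libraries cannot be told apart from the line where calls are set side by side.

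Only 8 genes were called in the same direction under TAM, under ETH and in MDA-MB-231, 3 higher and 5 lower, and they are named here after their values were seen. The pentraxin PTX3 rose by 1.36, 1.30 and 1.40 in this order, THBS1, the matrix protein thrombospondin, by 0.78, 1.07 and 1.08, and UGCG, a glucosylceramide synthase, by 0.74, 0.94 and 1.04. Lower were CDCA5, a cohesion factor (-1.17, -1.89 and -1.51), HMGA1, a chromatin protein (-1.27, -1.14 and -0.91), KRT81 (-0.95, -1.04 and -1.22), COMMD4 (-0.89, -1.10 and -1.81) and TK1 (-0.97, -1.23 and -0.76).

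The AP-1 sequence TGANTCA was counted in the 250 bases before the RefSeq start of each gene, as a description of these windows. It was found in 339 of 9401 protein-coding genes tested under TAM (3.61%) and in 6.6% of all RefSeq windows. The share was 6.55% of genes called higher (18 of 275) and 7.18% of genes called lower (28 of 390), and it was 10.5% of those at least 2-fold lower (16 of 153) and 4.23% of those at least 2-fold higher (3 of 71). Under ETH it was 3.84% of all tested genes, 6.77% of genes called lower (9 of 133) and 5.45% of genes called higher (6 of 110). In the comparison with the other knockdowns 3.94% of all tested genes held it, against 9.93% of genes called lower (44 of 443), 4.91% of genes called higher (13 of 265), 21.7% of genes at least 2-fold lower in JUNBi_TAM (28 of 129) and 4.69% of those at least 2-fold higher (3 of 64). Most called genes had no such sequence in this window.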

How the data were processed

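RNA of 36 libraries was sequenced by the authors, whose methods name TruSeq Ribo Profile libraries without setting the MDA-MB-231 libraries apart. Reads were aligned with STAR to the GENCODE 30 transcriptome of hg38 with up to 20 alignments kept per read, and summed per gene with RSEM. The deposited expected counts per gene are estimates that need not be whole, and the deposited TPM values are expected counts divided by effective length and scaled to the same total in each library. Expected counts were rounded, Ensembl genes alone were kept (60725 of 61471 identifiers), and 93.1% of them were given symbols from GENCODE 44. Libraries were grouped by their titles.

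JUNBi_TAM was compared with Ctrli_TAM in DESeq2 1.42.0 (R 4.3.3) with its default size factors and independent filtering, as a separate fit, and genes were called at a Benjamini-Hochberg adjusted p under 0.01. DESeq2 with the same settings gave the interaction with treatment, the contrast with the mean of the other knockdowns under TAM, and the comparisons under ETH and in MDA-MB-231. Log2 fold changes are unshrunken and carry DESeq2 standard errors. The alternatives were edgeR 4.0.16 quasi-likelihood, TMM size factors, a mean count of at least 10, effective length offsets, a replicate block, a single fit over the ER-Src groups and leaving out each library. In a simulation where 200 genes were altered by 1.5 (log2), the TAM fit of DESeq2 recovered 57.5% with 11 false calls, and edgeR 54%. The interaction fit recovered 42.5% and 19%.

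Named genes were JUNB, the JUN and FOS genes and IL6, the 10 that rose and the 10 that fell most under TAM (mean normalized count of at least 100, groups not overlapping), the 4 highest and 4 lowest of the interaction and of the contrast with other knockdowns, and for each gene list up to 4 called members (mean of at least 20) and up to 2 that were not called. Others were added as stated, and some genes that the rule or the lists hold are not reported here. The members and lists were chosen with earlier results of these data known. Totals of 6419720 to 14945457 counts in the 4 libraries set the precision, and intervals of count ratios cover counting error only. Replicate numbers were not taken to pair the libraries.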

Additional observations from a re-analysis of the deposited data

Results flagged for a closer look

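The effect of JUNBi differed between TAM and ETH, by the interaction term of DESeq2, for 8 genes named by the rule. It was lower under TAM for NDRG1 (-3.29, SE 0.27), LINC01127 (-3.08, SE 0.45) and ADAMTS4 (-4.08, SE 0.95), with their levels given above. ADAMTS4 had too few counts under ETH for an effect to be measured there (0.78, SE 2.12, no adjusted p), so its interaction rests on the libraries under TAM. The metallothionein pseudogene MT1L had an interaction of 1.94 (SE 0.43, adjusted p 0.0023), at 24.9 and 22.5 TPM in Ctrli_ETH, 6.86 and 8.11 in JUNBi_ETH, 29.3 and 29.0 in Ctrli_TAM and 36.8 and 47.2 in JUNBi_TAM. It shares sequence with other metallothioneins, so its counts may be split.

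A further 3 genes are readthrough transcripts that share their reads with the genes they join, and are uncertain. SENP3-EIF4A1 had an interaction of 3.40 (SE 0.51), NME1-NME2 of 2.38 (SE 0.36) and RAB4B-EGLN2 of 2.14 (SE 0.46). NME1-NME2 was at 175 and 121 TPM in Ctrli_ETH and 13.4 and 16.0 in JUNBi_ETH, against 50.0 and 30.4 in Ctrli_TAM and 20.6 and 22.3 in JUNBi_TAM.

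The small nuclear RNA gene listed as U2 had an interaction of -17.95 (SE 2.52, adjusted p 3.9e-09). It was at 7000 and 8200 TPM in JUNBi_ETH and listed at 0 in Ctrli_ETH and in all ER-Src libraries under TAM, so that the fitted size is no measure of fold. The JUNBi_ETH libraries were also those with the largest difference between replicates (SD 0.685), and the part of these libraries in the interaction calls was not tested beyond leaving each out.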

How the results depend on the processing

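The 900 calls under TAM stayed within 1.5 times under all alternatives that kept the 4 libraries (852 with edgeR, 964 with TMM, 1000 with a mean count of at least 10, 688 with effective length offsets, 639 with the replicate block, 994 in a single fit), and ranged from 234 to 534 without 1 library. The genes called were not always the same. Of the 900, 667 were called in the same direction with edgeR, 844 with TMM and 872 with a mean count of at least 10. With effective length offsets 587 were, with the replicate block 594 and in the single fit 607. The share of higher calls was 41.1%, and 50.4% with TMM. JUNB kept its call in all fits, from -2.32 to -1.75 without 1 library. Of 130 named calls edgeR kept 119, losing SERPINA3, BIRC5, KIF20A, MT1E, DCN, ACTN1, GAS5, IFITM1, KRT6A, MYH9 and SERPINB4, and effective length offsets kept 112 of 129.

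The other comparisons were less stable. The 46 interaction calls became 0 with edgeR (1337 genes at an unadjusted p under 0.05), 128 in the single fit, 100 with the replicate block and 18 to 480 without 1 library. The 421 calls under ETH became 1 with edgeR, 1752 in the single fit and 68 to 1375 without 1 library, where the lowest counts came without a control library (71 without replicate 1, 68 without replicate 2). The 272 calls in MDA-MB-231 became 0 with edgeR (2605 at an unadjusted p under 0.05) and 10 to 833 without 1 library. The 956 calls against the other knockdowns ranged from 414 to 982 without 1 library. Fits without 1 library hold fewer libraries and assume that a lone library varies like the others, and the causes of the other changes were not tested.

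The labels do not say that a replicate number marks a shared batch, and replicate numbers were not taken to pair the libraries (correlation of deviations 0.043 under TAM, 0.227 under ETH and 0.043 to 0.337 over the pairs of the interaction). Under the replicate block 107 of 127 named calls remained. No paired analysis was possible in MDA-MB-231 because the control and JUNBi libraries of this set share no replicate numbers. Estimates that turned direction belonged to genes that were not called: over the fits without 1 library, JUND ranged from -0.45 to 0.12, FOSL2 from -0.14 to 0.10 (0.02 without JUNBi_TAM replicate 1), FOSB from -0.33 to 1.42, MT1L from -0.03 to 0.49 and SPRR1B from -2.51 to 1.80.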

Other observations

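Cytoskeletal and noncoding RNAs held changes not described above. TAGLN, the smooth muscle protein transgelin, was at 131 and 159 normalized counts in Ctrli_TAM and 364 and 404 in JUNBi_TAM (1.42, SE 0.25, DESeq2 adjusted p 6.7e-07), and tropomyosin TPM1 rose by 0.68 (SE 0.16), while the nonmuscle myosin MYH9 (-0.58, SE 0.11) and the actinin ACTN1 (-0.45, SE 0.13) fell. LTBP1, which stores TGF-beta in the matrix, was at 3809 and 3803 against 1540 and 1595 (-1.28, SE 0.12, adjusted p 1.6e-25), in the direction opposite to TGFB2. Of noncoding RNAs, MIR205HG, the host of an epithelial microRNA, was at 3702 and 3265 against 1729 and 1608 (-1.06, SE 0.12, adjusted p 5.3e-15), and MIR22HG (0.92, SE 0.24) and GAS5 (0.54, SE 0.11) rose.

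Metallothioneins went apart, with MT2A at 30080 and 33050 normalized counts against 16970 and 21220 (-0.73, SE 0.12) and MT1E at 6905 and 8513 against 9961 and 11540 (0.48, SE 0.13). Of interferon-stimulated genes IFIT3 (0.99, SE 0.24) rose and IFITM1 fell (-0.70, SE 0.20).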
